A study of Mus musculus with 7 samples.

Results

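The Nodal pathway genes Nodal, Lefty1, Lefty2 and Tdgf1 were examined in mouse embryonic stem cells (ESCs) and mouse extraembryonic endoderm stem cells (XENs). Maps of Zfp281 and Suz12 binding were used for both, and a map of the histone mark H3K27me3 for XENs. The maps were made by chromatin immunoprecipitation and sequencing (ChIP-seq). The genes were covered by 3 fixed windows of the mm9 genome build, chr10:60860001-60910000 for Nodal, chr1:182800001-182890000 for Lefty1 and Lefty2 together, and chr9:110820001-110870000 for Tdgf1. A peak of any list that overlapped a window by at least 1 bp was taken as a member, and 28 of the 63934 peaks in all lists were members. The ESC Zfp281 list gave 26 of them, of 52296 peaks, and the ESC Suz12 list gave 2, of 8184. The XEN Zfp281 list, with 3449 peaks, gave none, nor did the 4 XEN Suz12 peaks or the single XEN H3K27me3 peak.

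All cells were of strain 129S1 and grew without feeder cells on gelatin, the ESCs in serum with leukemia inhibitory factor and the XENs in medium conditioned by mouse embryonic fibroblasts. No genetic change or treatment was named for any group. Each group was 1 library, so there was no spread between replicates and no test of a difference between cell types or antibodies. Each library came from a bulk population, in which binding in fewer cells and weaker binding in every cell cannot be told apart. The lists hold no expression values, so the identity of the cells was not checked against marker genes.

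Nodal is a secreted ligand of the TGF-beta family that signals through activin receptors and Smad2 and Smad3. Tdgf1, also known as Cripto, is the cell surface co-receptor that Nodal needs, and Lefty1 and Lefty2 are secreted antagonists that block Nodal and its co-receptor. Nodal and both Lefty genes are themselves targets of the pathway, and all 4 genes are known for their expression in pluripotent cells. Zfp281 is a zinc finger factor that binds G-rich DNA, and Suz12 is a subunit of Polycomb repressive complex 2, which writes the histone mark H3K27me3.

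The promoter sequences of the ligand and of the co-receptor are shown because Zfp281 is known to bind G-rich DNA, so their base composition can be read directly. RefSeq promoters of build GRCm38.p6 were matched by symbol for 2 of the 4 genes, and Lefty1 and Lefty2 had no entry. Each sequence is the 250 bases before the start site, 5′ to 3′ on the gene's strand, chr10:61417722-61417971 on the plus strand for Nodal and chr9:110946159-110946408 on the minus strand for Tdgf1. These positions belong to another build than the peaks and cannot be set against them. Capitals mark the letters CAGAC, the Smad box, and GGGCGTGG, a G-rich box chosen after the sequence had been read.
Nodal promoter: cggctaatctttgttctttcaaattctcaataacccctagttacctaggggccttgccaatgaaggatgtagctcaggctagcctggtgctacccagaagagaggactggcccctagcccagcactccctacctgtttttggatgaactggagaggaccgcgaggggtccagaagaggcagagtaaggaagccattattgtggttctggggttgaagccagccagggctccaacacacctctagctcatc
Tdgf1 promoter: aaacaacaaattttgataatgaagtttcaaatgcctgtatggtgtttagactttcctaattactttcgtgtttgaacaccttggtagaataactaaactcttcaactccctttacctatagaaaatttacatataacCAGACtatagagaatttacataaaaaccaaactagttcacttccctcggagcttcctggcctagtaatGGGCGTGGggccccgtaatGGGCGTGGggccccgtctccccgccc

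The Tdgf1 promoter held GGGCGTGG at 2 places, starting 45 and 26 bases before the start site, each within the same longer repeat. On either strand, 4.79% of the 32851 promoters of this length held these letters and 0.615% held them at 2 or more places. The letters were chosen after the sequence had been read, so these shares are no test. The Tdgf1 promoter held the Smad box once, as 42.2% of promoters did on either strand at least once. GGGGAGGGG, a G-rich element of the kind Zfp281 binds, and AATCCACA, the element of the Smad partner Foxh1, were in neither promoter on either strand. They occurred in 5.75% and 0.718% of all promoters. No match overlapped another. The share of G and C was 53.2% in the Nodal promoter and 42% in that of Tdgf1, against a median of 52.4% over all promoters. G alone made up 26.8% of the Nodal sequence and 18% of the Tdgf1 sequence on the strand shown, with no value over all promoters beside it.

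In ESCs, Zfp281 peaks were found in all 3 windows, 9 at Nodal, 13 at Lefty1 and Lefty2 and 4 at Tdgf1. Every window had at least 1 peak among the strongest 10% of the list, and each also held peaks that ranked in the lower 50%. Fold enrichment, the authors' ratio of ChIP signal to the level expected at the peak, ran from 3.01 to 22.8 with a median of 5.15, against a median of 5.48 over the whole list. Enrichment exceeded 10-fold at 7 of the 26 peaks, or 26.9% (95% Wilson interval 13.7 to 46.1%, counting error only), and at 19.1% of all peaks. It was under 5-fold at 13 peaks, against 43.3% of all peaks. By the -log10 q-value, 6 of the 26 lay in the top decile of the list, or 23.1% (11.03 to 42.1%), where 10% of all peaks lie by construction. Neighbouring peaks are not independent, so these intervals are too narrow. By median enrichment the members as a group were thus not above the list, and strong and weak peaks stood side by side in each window. Their median width was 795 bp for the 26 members, against 594 bp over the whole list.

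**Figure D1:**
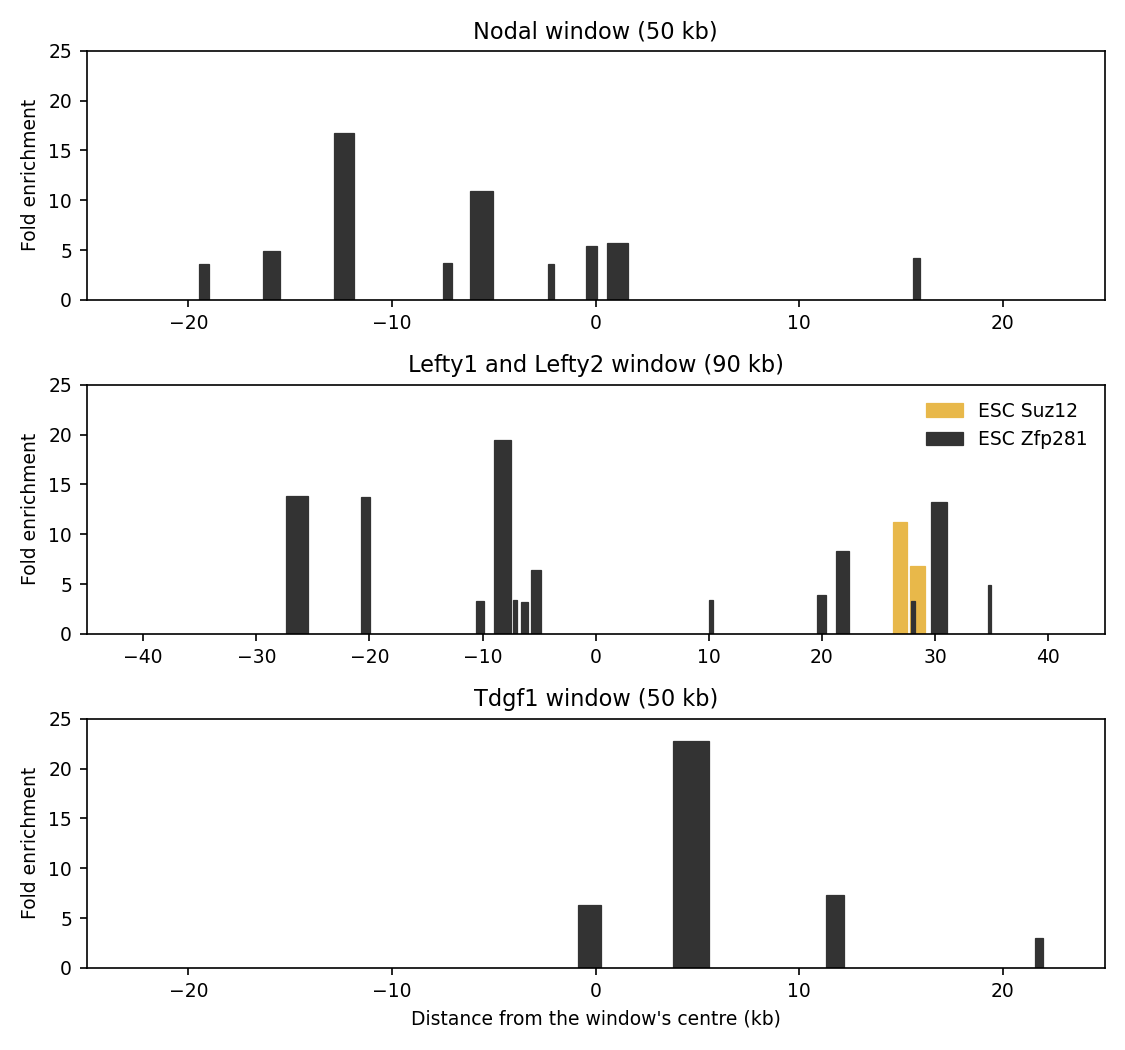
Peaks in the 3 windows, drawn at their width and at the authors' fold enrichment (vertical axis), against the distance from the centre of each window in kb. Dark bars are ESC Zfp281 peaks and light bars ESC Suz12 peaks, which occur only in the Lefty1 and Lefty2 window, and the highest bar is the 22.8-fold peak at Tdgf1.

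**Figure D2:**
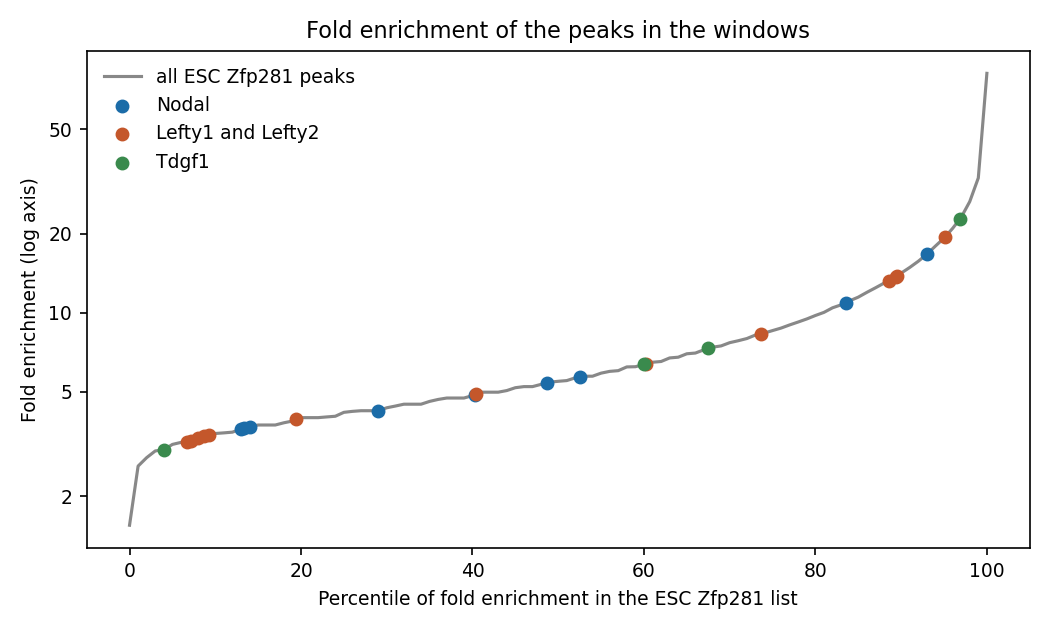
Fold enrichment on a log axis against its percentile in the ESC Zfp281 list, with the whole list as a line and the 26 peaks of the windows as points coloured by window. The points spread over nearly the whole percentile axis, from 3.01-fold to 22.8-fold, where the whole list ran from 1.55-fold to 81.5-fold.

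At the gene of the ligand, Nodal, the strongest of the 9 Zfp281 peaks lay at chr10:60872171-60873124. It was 954 bp wide, 16.7-fold enriched, with a -log10 q-value of 69.2 and rank 3886 in the list. The next, at chr10:60878814-60879966, was 10.9-fold enriched with a -log10 q-value of 36.0 and rank 8818. These 2 summits stood well above the rest of the window, where no peak passed 5.69-fold.
The other 7 peaks ranked between 23311 and 44557, and their widths were 320 to 1056 bp. At the lowest coordinates, those at chr10:60865500-60866007 and chr10:60868659-60869475 were 3.64-fold and 4.87-fold enriched. A peak at chr10:60877518-60877933 (3.68-fold) lay just before the second strongest. After it came chr10:60882654-60882973 (3.61-fold), chr10:60884518-60885049 (5.41-fold) and chr10:60885548-60886603 (5.69-fold). The last peak, at chr10:60900562-60900920 (4.24-fold), stood apart from the others, 14286 bp from the summit before it. With neighbours less than 3 kb apart taken as 1 run, a distance chosen after the data were seen, 8 of the 9 peaks fell into 2 runs, of 3 peaks over 7.63 kb and of 5 peaks over 9.09 kb. In GRCm38.p6, Nodal lies between Pald1 and Eif4ebp2.

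At the genes of the antagonists, Lefty1 and Lefty2, 4 of the 13 Zfp281 peaks were in the top decile of the list, and they were spread over the window. The one at chr1:182836036-182837539 was 19.5-fold enriched with a -log10 q-value of 102.2, rank 1991 and a width of 1504 bp. The one at chr1:182817605-182819600 was 13.8-fold enriched, but had the highest -log10 q-value of the window, 105.5, and rank 1877. It was also the widest of all 26 peaks, with 1996 bp. The other 2 lay at chr1:182824231-182825085 (13.7-fold, rank 4126) and at chr1:182874613-182876048 (13.2-fold, rank 3999). The antagonist window had 4 separate sites of 13-fold enrichment or more, where the Nodal and Tdgf1 windows had 1 each. However, it was 90 kb long and spanned both Lefty genes, and the other windows were 50 kb each. The 13-fold cut fits these peaks and leaves out the 10.9-fold Nodal peak, so these counts are no measure of a difference between the genes.
The peak at chr1:182866269-182867412 followed with 8.31-fold enrichment and rank 9571. Around the 19.5-fold peak, 5 peaks formed a run of 5.72 kb. Its weaker members were chr1:182834439-182835094 (3.34-fold), chr1:182837731-182838083 (3.39-fold), chr1:182838416-182839057 (3.23-fold) and chr1:182839302-182840162 (6.39-fold). The 4 remaining peaks of the window were low, chr1:182855029-182855408 (3.43-fold), chr1:182864586-182865358 (3.92-fold), chr1:182872891-182873207 (3.26-fold) and chr1:182879652-182879965 (4.90-fold). The 8 peaks outside the top decile and below the 8.31-fold peak ranked from 16313 to 47880.

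At the gene of the co-receptor, Tdgf1, a single site dominated by fold. The peak at chr9:110848820-110850585 was 22.8-fold enriched, the highest of all 26, with a -log10 q-value of 103.7, rank 1929 and a width of 1766 bp. Its enrichment was 3.12 times that of the next peak of the window, whereas this ratio was 1.53 at Nodal and 1.40 at the Lefty genes. These ratios also depend on the expected level at each peak, given below. Of the other 3 peaks, chr9:110856331-110857171 was 7.31-fold enriched with rank 12124 and chr9:110844126-110845271 was 6.35-fold enriched with rank 17197. The fourth, chr9:110866570-110866976, had the lowest enrichment of all 26, 3.01-fold, with rank 45263. No neighbours were closer than 3 kb, and summits were 4959 to 9955 bp apart. In GRCm38.p6, Tdgf1 lies between Fam240a and Lrrc2. Which peak of any window lies at a start site, in an exon or in an intron was not analysed here, since no annotation of mm9 was used. For the same reason the place of the genes within the windows was not checked.

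The number of ChIP tags piled up at each peak was computed from its fold and its -log10 p-value. It is the height of the pile, not a count of all tags over the width of the peak. At the strongest Nodal peak 77 tags were piled up where 3.67 were expected, and at the strongest Tdgf1 peak 100 where 3.43 were expected. The 13.8-fold Lefty peak had 137 tags, the most of the 26, over an expected level of 8.97, and the 19.5-fold Lefty peak had 108 over 4.60. The peak with more tags had the lower fold because its expected level, the denominator, was higher. At Tdgf1 the 7.31-fold peak had 50 tags over 5.98, a higher level than at the 22.8-fold peak. The second highest number of tags was 0.5 times the highest at Tdgf1, 0.649 times at Nodal and 0.788 times at the Lefty genes. The fewest tags were 16 over 3.01, at the 4.24-fold Nodal peak. The median was 30 tags, against 25 over the whole list. The median expected level, the denominator of the fold, was 5.05 tags for the 26 peaks and 3.31 over the whole list.
The expected level was more than 1% above the lowest of the list, 3.01 tags, at 24 of the 26 peaks, and at 55.9% of all ESC Zfp281 peaks. It was raised at 7 of 9 peaks at Nodal, where 51.9% of the peaks of chromosome 10 had a raised level, and at 4 of 4 at Tdgf1, where 48.7% of those of chromosome 9 did. At the Lefty genes it was raised at 13 of 13, but chromosome 1 as a whole had a raised level at 93.3% of its peaks, with a median level of 4.48 tags against 3.22 on the other autosomes. The deposited folds are relative to these levels. The part of the control in the number of peaks was not tested.

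**Figure D3:**
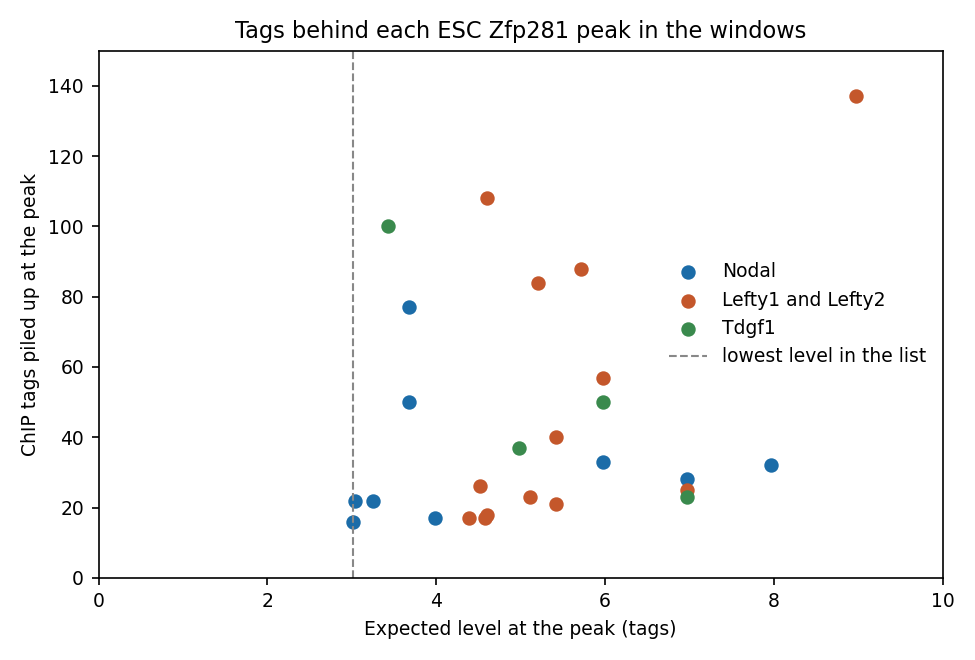
ChIP tags piled up at each of the 26 ESC Zfp281 peaks (vertical axis) against the level expected there (horizontal axis, both in tags), coloured by window. The dashed line is the lowest level of the list, 3.01 tags. All 13 Lefty points lie to its right, and the 137-tag peak has the highest level, 8.97.

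The density of Zfp281 peaks was set against every tile of the same length on chromosomes 1 to 19 and X. The Nodal window held 9 peaks where 50 kb tiles held 1.01 on average, and 0.859% of 52739 tiles held at least as many. The Lefty window held 13 where 90 kb tiles held 1.80 on average, and 1.18% of 29295 tiles held at least as many. The Tdgf1 window held 4, and 8.63% of 50 kb tiles held at least as many. The Nodal and Lefty windows were therefore among the dense 2% of tiles and the Tdgf1 window was not. The windows were placed around chosen genes and the tiles were not, so these shares describe the windows and are no test. On their own chromosomes the shares were 0.962%, 1.01% and 9.29%. Chromosome 1 had 20.6 peaks per Mb and the other autosomes 20.9. Among the higher-scoring 50% of the list, 3 peaks remained at Nodal, 6 at the Lefty genes and 3 at Tdgf1, and 5.87%, 2.92% and 5.87% of tiles then held at least as many. At Nodal, 6 of the 9 peaks were thus in the lower-scoring part of the list. ESC Zfp281 peaks covered 12.2% of the Nodal window, 12.5% of the Lefty window and 8.32% of the Tdgf1 window, against 1.51% of chromosomes 1 to 19 and X.

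**Figure D4:**
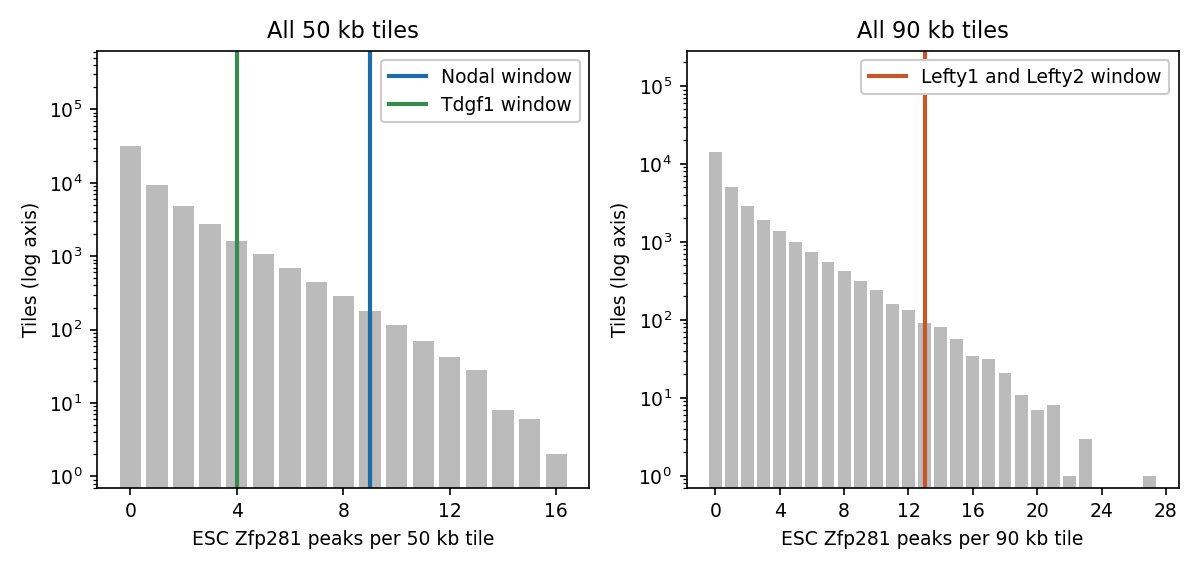
Number of tiles (log axis) by the ESC Zfp281 peaks they hold, for all 50 kb tiles (left) and all 90 kb tiles (right). Vertical lines mark the windows, with 9 peaks at Nodal, 4 at Tdgf1 and 13 at Lefty1 and Lefty2.

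In XENs, none of the 26 ESC Zfp281 sites had a Zfp281 peak, which allows a share of up to 11.5%. Over the whole ESC list 5.10% of the peaks overlapped an XEN peak, so 0 of 26 cannot be told from this background. The 6 members of the top decile had no XEN peak either, where 24.9% of all top decile peaks had one, and 0 of 6 allows a share of up to 50%. Among tiles with as many ESC peaks, 59.8% of those as dense as the Nodal window, 46.7% of those as dense as the Lefty window and 73.7% of those as dense as the Tdgf1 window held no XEN Zfp281 peak. The windows were thus without XEN peaks as many other dense regions were. The weakest peaks of the XEN and ESC Zfp281 lists had -log10 q-values of 1.53 and 1.31. Still, the XEN list held 3449 peaks and the ESC list 52296. Similar end values do not make detection equal, and total depth is unknown. Whether detection differed between the cell types was not tested.
The nearest XEN Zfp281 peak was 319 kb from the Nodal window, at chr10:60540565-60541058 (6.54-fold), and overlapped no ESC Zfp281 peak. At the Lefty genes it was only 18.7 kb from the window, at chr1:182780956-182781348 (5.40-fold, rank 923), and it overlapped an ESC Zfp281 peak. At Tdgf1 it was 154 kb away, at chr9:110665784-110666217 (7.70-fold, rank 864), and also overlapped an ESC Zfp281 peak. The XEN list thus held a Zfp281 peak within 20 kb of the Lefty window and none at its 13 ESC sites. Whether Zfp281 was bound at these sites below the limit of detection was not tested.

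Among the 3 windows, only that of the Lefty genes held Suz12 peaks in ESCs. Of all 90 kb tiles, 7.58% held at least 2 Suz12 peaks and 85.02% held none, but of the tiles with at least 13 Zfp281 peaks only 46.7% held none, so Suz12 peaks were present in most tiles as dense in Zfp281 as the Lefty window. The peak at chr1:182871258-182872520 was 11.3-fold enriched with a -log10 q-value of 37.7 and ranked 1202 in the Suz12 list. The peak at chr1:182872828-182874104 was 6.85-fold enriched with a -log10 q-value of 16.3 and ranked 2770. Only the second overlapped a Zfp281 peak, 1 of the 2, where 45.8% of all Suz12 peaks did. That Zfp281 peak, chr1:182872891-182873207, was a weak one (3.26-fold), lay within the Suz12 peak over its whole 317 bp and had its summit 10 bp from that of Suz12. The strong 13.2-fold Zfp281 peak at chr1:182874613-182876048 began 508 bp past the end of the Suz12 peak, with 2250 bp between the summits.
Suz12 overlap was seen at 1 of the 26 Zfp281 peaks, which is 3.85% (0.682 to 18.9%), an interval that includes the 7.77% of the whole list. None of the 6 in the top decile did, which allows a share of up to 50%, and 14.0% of all top decile peaks overlapped a Suz12 peak. The nearest Suz12 peak was 337 kb from the Nodal window and 135 kb from the Tdgf1 window. Windows without Suz12 were common, since 90.8% of all 50 kb tiles held no Suz12 peak, as did 54.7% of those with at least 9 Zfp281 peaks. In XENs, the short Suz12 list had no peak on chromosomes 1, 9 or 10. The single XEN H3K27me3 peak lay neither in the windows nor within 10 kb of them. Lists of 4 and 1 peaks cannot show that Polycomb was absent from these genes in XENs.

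The window edges left out few peaks. Within 10 kb outside them there were 4 ESC Zfp281 peaks and none of the other lists. The strongest, chr10:60857382-60858007, was 9.97-fold enriched and ended 1993 bp before the Nodal window. The other 3 flanked the Lefty window with enrichments of 3.51-fold, 2.72-fold and 6.52-fold. The outermost peaks inside the windows were the 3.64-fold and 4.24-fold peaks at Nodal, the 13.8-fold and 4.90-fold peaks at the Lefty genes and the 6.35-fold and 3.01-fold peaks at Tdgf1.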

How the data were processed

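ChIP-seq peak lists of 5 samples were used, 1 library per group, and the 2 input samples had no list used here. Per the submitters' processing notes, FastQC 0.10.1, Bowtie2 2.3.4, SAMtools 0.1.19 and build mm9 were used; the peak caller, its control and its threshold are not given in the sources used here. The deposited score is 10 times the -log10 q-value without decimals. The deposited fold is a ratio of the ChIP signal to an expected level, and the deposited -log10 values give p and q. Ranks are by -log10 q-value. Overlap was at least 1 bp. Tags and expected levels were computed assuming that the fold is tags plus 1 over level plus 1 and that p is a Poisson upper tail. Only whole numbers of tags were tried. The best of them matched the -log10 p-value within 0.002 for all 52296 ESC Zfp281 peaks. Total depth is unknown. The code for overlaps, tile counts and tags was tested on simulated data. The Wilson intervals (95%) include counting error alone, and a count of 0 is given with the share that 3 counts would be. Python 3.11.15, pandas 2.3.3, SciPy 1.17.1 and matplotlib 3.10.9 were used.

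The members and lists were chosen with earlier results of these data known. The rule was to name every peak of the windows with position, width, fold, -log10 q-value and rank; the last 2 and width are given by range for weaker peaks. Peaks near other genes of the pathway and sequences under the peaks were not analysed here, since no mm9 genome or annotation was used. Alternatives were the higher-scoring 50% of the lists, windows changed by 10 kb, merging of peaks closer than 500 bp, 50% overlap, centres within 1 kb and tiles shifted by 25 kb; tiles of the own chromosome were added after seeing the data. One item is not reported here.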

Additional observations from a re-analysis of the deposited data

How the results depend on the processing

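No paired analysis was possible because no group held more than 1 library. Of 31 alternative values, 22 stayed within 1.5 times the reported count or within the interval of the reported share, among them all 9 for the XEN Zfp281 list. Of these 9, only widened windows and centres within 1 kb could have changed a count of 0. The others restrict or merge peaks, so they are no support for it. With the higher-scoring 50% of the lists, 12 ESC Zfp281 peaks remained in the windows, the share at a Suz12 peak was 0%, and 5.87% (Nodal), 2.92% (Lefty) and 5.87% (Tdgf1) of tiles held at least as many peaks; fewer peaks are kept by construction. Merging joined the 2 Suz12 peaks into 1. On the own chromosome, 0.962% (Nodal), 1.01% (Lefty) and 9.29% (Tdgf1) of tiles held at least as many; the cause was not tested. With 26 peaks, the count of 0 at XEN peaks allows a share of up to 11.5%.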
